A study of Mus musculus with 18 samples.

Results

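Of 21525 merged H3K27ac regions on chromosomes 1 to 19, 3171 were touched by a peak of the mdxTLR4-/- list and by no peak of the WT or mdx list, which is 14.7% of all merged regions. These mdxTLR4-/- alone regions were chosen by the peak calls themselves, once peaks sharing 1 bp or more had been joined across the 3 lists. Their number and their read counts therefore describe the choice and are given without a test. Peaks of the same list do not overlap each other, so by the rule each region was exactly 1 mdxTLR4-/- peak. Most of the regions were weak: the median was 5 ChIP reads, which was also the lowest count of any peak in the list. The regions that stood highest lay at or near Rap1gds1, Piezo1, Gemin2 and Ahnak with 18 reads each, and at Notch1 with 17 reads.

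The cells were bone marrow-derived macrophages (BMDM), grown for a week from marrow of male mice and left unstimulated. H3K27ac was measured by ChIP-seq on native chromatin cut with micrococcal nuclease, with 2 libraries from WT mice (strain label C57BL6), 2 from mdx mice (Dmdmdx-4Cv, which lack dystrophin) and 1 from mdxTLR4-/- mice (Bl6/Bl10, which lack dystrophin and TLR4), plus 1 H3K27ac input labelled C57BL6. H3K27me3 was measured in 2 libraries per genotype. The labelled ages were 19 and 20 weeks for the WT, 21 and 22 weeks for the mdx and 23 weeks for the mdxTLR4-/- H3K27ac libraries. For H3K27me3 they were 12 and 13, 14 and 15, and 16 and 17 weeks in the same order, so the marks were not matched in labelled age. The labelled ages rise by 1 week from each sample to the next across the series. The study's methods name a C57BL/6J background for its mice, and which part of Tlr4 is missing and whether animals were pooled are not given in the sources used here. Genotype, strain label and labelled age changed together, and the mdxTLR4-/- group also differed in its number of H3K27ac libraries, so these cannot be told apart. Replicates had been merged before peaks were called. Each genotype was thus 1 list, the spread between mice could not be measured and no p-value is given.

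H3K27ac is an acetyl group on lysine 27 of histone H3, placed by CBP and p300 at active gene starts and enhancers and removed by histone deacetylases. H3K27me3 is a methyl mark on the same lysine, placed by Polycomb repressive complex 2 at silenced genes, so a single histone tail cannot carry both. In macrophages, TLR4 senses bacterial lipopolysaccharide and molecules released by damaged tissue, and signals through MyD88 and TRIF to NF-kappaB, AP-1 and interferon regulatory factors, which act on enhancers that PU.1 and C/EBP factors have opened.

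The sequences of the strongest mdxTLR4-/- alone regions show the range of their makeup at gene starts and away from them. The central 300 bp of the 3 regions with the most reads in each group are printed, as read from the RefSeq copy of the GRCm38 (mm10) plus strand. Bases are in lower case, and capitals mark a match to any of the 10 motifs searched (given with the motif results). Those at gene starts lay at Rap1gds1, a nucleotide exchange factor for small GTPases (chr3:139074751-139075050, within a region of 18 reads), at Ppid, a cyclophilin chaperone (chr3:79592051-79592350, 16 reads), and at Raph1, an adaptor of the actin cytoskeleton (chr1:60566351-60566650, 15 reads). GC content was 76.3%, 42.3% and 76.7%, with 38, 5 and 35 CpG dinucleotides. Only the Ppid window held a motif match, a CCAAT box on the minus strand.
Rap1gds1: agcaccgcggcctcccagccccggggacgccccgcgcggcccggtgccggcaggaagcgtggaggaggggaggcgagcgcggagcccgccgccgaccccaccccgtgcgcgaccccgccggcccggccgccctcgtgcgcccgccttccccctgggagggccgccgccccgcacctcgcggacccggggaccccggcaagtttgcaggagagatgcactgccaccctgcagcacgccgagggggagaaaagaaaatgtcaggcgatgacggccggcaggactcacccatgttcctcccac
Ppid: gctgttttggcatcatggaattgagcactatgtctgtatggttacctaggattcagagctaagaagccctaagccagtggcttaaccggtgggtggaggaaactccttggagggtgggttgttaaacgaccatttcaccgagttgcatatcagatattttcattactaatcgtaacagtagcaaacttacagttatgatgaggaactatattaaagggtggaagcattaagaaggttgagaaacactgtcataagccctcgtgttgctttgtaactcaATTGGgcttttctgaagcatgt
Raph1: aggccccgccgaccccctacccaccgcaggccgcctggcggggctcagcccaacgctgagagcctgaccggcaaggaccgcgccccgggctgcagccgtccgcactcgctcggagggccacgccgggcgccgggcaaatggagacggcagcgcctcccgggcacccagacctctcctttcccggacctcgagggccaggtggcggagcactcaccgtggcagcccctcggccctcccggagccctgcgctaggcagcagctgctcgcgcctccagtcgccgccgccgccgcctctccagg

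The regions away from gene starts lay within a body shared by Gm20388 and the mechanosensitive channel gene Piezo1 (chr8:122522951-122523250), downstream of the gene start of Gemin2 in a stretch with no protein-coding gene (chr12:59036851-59037150), and in an exon of the scaffold protein gene Ahnak (chr19:9012851-9013150), each from a region of 18 reads. They had 53.0%, 43.0% and 49.3% GC and 4, 6 and 0 CpG dinucleotides, values near those of the Ppid window and below those at Rap1gds1 and Raph1, and no motif matched. In the window near Gemin2 the same run of bases repeats in tandem, and 100% of that region is masked as repeats. In the Ahnak window the bases are exon sequence that encodes the protein's own repeated units.
Piezo1: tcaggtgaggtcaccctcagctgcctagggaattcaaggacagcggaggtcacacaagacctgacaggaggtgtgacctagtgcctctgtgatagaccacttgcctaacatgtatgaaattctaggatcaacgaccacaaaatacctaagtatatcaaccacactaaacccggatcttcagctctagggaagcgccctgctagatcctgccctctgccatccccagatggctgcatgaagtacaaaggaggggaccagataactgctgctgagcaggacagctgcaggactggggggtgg
Gemin2: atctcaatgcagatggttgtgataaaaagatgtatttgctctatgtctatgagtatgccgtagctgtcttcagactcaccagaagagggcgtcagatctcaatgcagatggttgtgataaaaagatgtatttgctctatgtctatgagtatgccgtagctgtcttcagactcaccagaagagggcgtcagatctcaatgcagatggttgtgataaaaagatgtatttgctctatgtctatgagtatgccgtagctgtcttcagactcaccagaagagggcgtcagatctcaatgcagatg
Ahnak: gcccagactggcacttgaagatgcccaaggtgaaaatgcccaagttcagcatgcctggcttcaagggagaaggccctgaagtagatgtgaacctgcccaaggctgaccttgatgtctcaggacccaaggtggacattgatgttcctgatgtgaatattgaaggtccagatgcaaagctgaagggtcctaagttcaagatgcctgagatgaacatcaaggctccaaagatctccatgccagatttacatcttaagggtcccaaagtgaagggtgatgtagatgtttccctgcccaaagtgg

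Low read counts set the mdxTLR4-/- alone regions apart from the shared regions of the same list. Of the 3171 regions, 1663 (52.4%) held 5 reads, 751 held 6, 356 held 7 and 134 held 10 or more, with a maximum of 18. The regions summed to 19104 reads, 11.5% of the reads in mdxTLR4-/- peaks on these chromosomes, over 4.04 Mb or 0.164% of bases. The median length was 1200 bp (range 200 to 5400 bp), and the median density was 5 reads per kb, with an upper quartile of 7 and a maximum of 45. Regions found in all 3 genotypes held a median of 13 mdxTLR4-/- reads (95% order-statistic interval 13 to 14, n = 6383) at 8 reads per kb. The mdx alone and WT alone regions held a median of 7 reads each in their own lists, over 1800 bp and 1600 bp.

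The share of peaks found in a single list fell with the read count in each of the 3 lists. Of 2521 mdxTLR4-/- peaks with 5 reads, 1663 were found in that list alone (Wilson 95% interval 64.1 to 67.8%), against 30.3% of those with 7 reads (27.8 to 33.0%) and 5.41% of those with 10 to 14 reads (4.55 to 6.43%). None of the 1823 mdxTLR4-/- peaks with 20 or more reads was alone, and a count of 0 allows a share of up to 0.165% by the limit of 3 counts of the total, or 0.210% by the Wilson bound. The mdx list had 5 such peaks of 2221 and the WT list 30 of 3555. In each class of read counts the mdxTLR4-/- list had the lowest share of peaks alone, and it had many more peaks at the minimum of 5 reads: 2521, against 163 in the mdx list and 240 in the WT list. Intervals here cover counting error only. Library depth was not analysed here, reads were not scaled, and a list gives no reads outside its peaks, so how many WT or mdx reads lay in the mdxTLR4-/- alone regions is not known. They were not called there, which differs from being empty.

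**Figure D1:**
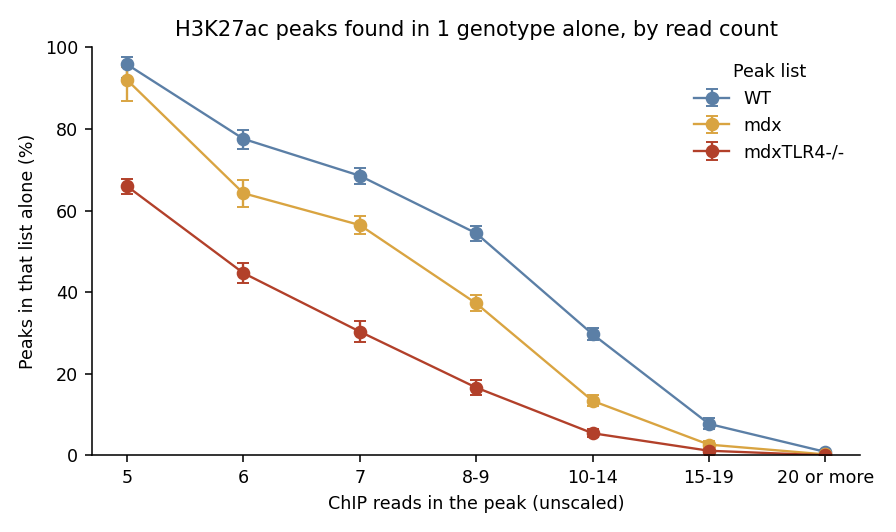
Share of H3K27ac peaks on chromosomes 1 to 19 that were found in 1 list alone (y axis, %), by the unscaled ChIP reads in the peak (x axis), for the WT, mdx and mdxTLR4-/- lists. Points are shares and bars are Wilson 95% intervals. In the mdxTLR4-/- list the share falls from 1663 of 2521 peaks at 5 reads to 0 of 1823 peaks at 20 or more reads.

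Regions just inside and just outside the rule were alike in read counts. The closest members lay directly beside a WT or mdx peak with 0 bases between: there were 31 of these, with 5 to 16 reads and a median of 6. Just outside the rule, 106 mdxTLR4-/- peaks shared 200 bp with a WT or mdx peak, the smallest overlap the 200 bp grid allows, and held 5 to 35 reads with a median of 6. The median distance of the mdxTLR4-/- alone regions to the next WT or mdx peak was 26600 bp (24800 to 28800 bp). A WT or mdx peak lay within 1 kb of 170 regions (5.36%), within 5 kb of 578 (18.2%, 16.9 to 19.6%) and within 20 kb of 1364 (43.0%). For mdx alone regions the share with a peak of the other lists within 5 kb was 15.6% (14.3 to 16.9%), and for WT alone regions 18.2% (17.2 to 19.2%), so the first interval lay just below that of the mdxTLR4-/- alone regions and the other overlapped it.

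Most mdxTLR4-/- alone regions lay away from gene starts. Of the 3171, 486 were within 1 kb of the start of a protein-coding gene (15.3%, 14.1 to 16.6%), 372 others touched an exon (11.7%, 10.7 to 12.9%), 946 lay in introns (29.8%) and 1367 between genes (43.1%, 41.4 to 44.8%). The windows around gene starts make up 1.59% of bases and exons 3.76%. Regions of all 3 genotypes lay at gene starts in 53.3% of cases (52.1 to 54.5%), and in 47.4% (45.1 to 49.6%) where they held fewer than 10 mdxTLR4-/- reads. They join peaks of 3 lists and were longer, with a median of 3000 bp against 1200 bp, and the part of length was not tested. Among the mdxTLR4-/- alone regions with fewer than 10 reads the share was 14.4% (13.2 to 15.7%), and among the 134 with 10 or more it was 35.8% (28.2 to 44.2%).

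Against the regions found in another single list, the mdxTLR4-/- alone regions were more often genic. They lay at gene starts more often than the mdx alone regions (10.3%, 9.28 to 11.4%) and the WT alone regions (12.4%, 11.6 to 13.4%), and in exons more often (6.56%, 5.73 to 7.49%, and 8.30%, 7.58 to 9.07%), with no overlap of the intervals. Between genes they were fewer, against 55.4% of the mdx alone regions and 2665 of the 5328 WT alone regions (48.7 to 51.4%). The regions between genes also differed in repeats. Their median share of repeat-masked bases was 31.5% for mdxTLR4-/- alone, 99.3% for mdx alone and 87.8% for WT alone. The part of repeats in these differences of position was not tested. Among regions with fewer than 10 reads the gene start share was 9.00% (7.96 to 10.2%) for mdx alone and 10.6% (9.67 to 11.5%) for WT alone. At least 50% of the bases were exonic in 219 of the mdxTLR4-/- alone regions (6.91%, 6.07 to 7.84%), compared with 3.06% (2.51 to 3.74%) of the mdx alone and 3.75% (3.28 to 4.30%) of the WT alone regions. Away from gene starts and by length, the intervals of this share were apart at 1800 bp or longer, with 3.81% (2.53 to 5.70%) against 0.876% (0.513 to 1.49%) and 1.33% (0.936 to 1.88%). They overlapped in the 3 shorter classes, with 6.52%, 3.04% and 3.11% at 200 to 400 bp.

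**Figure D2:**
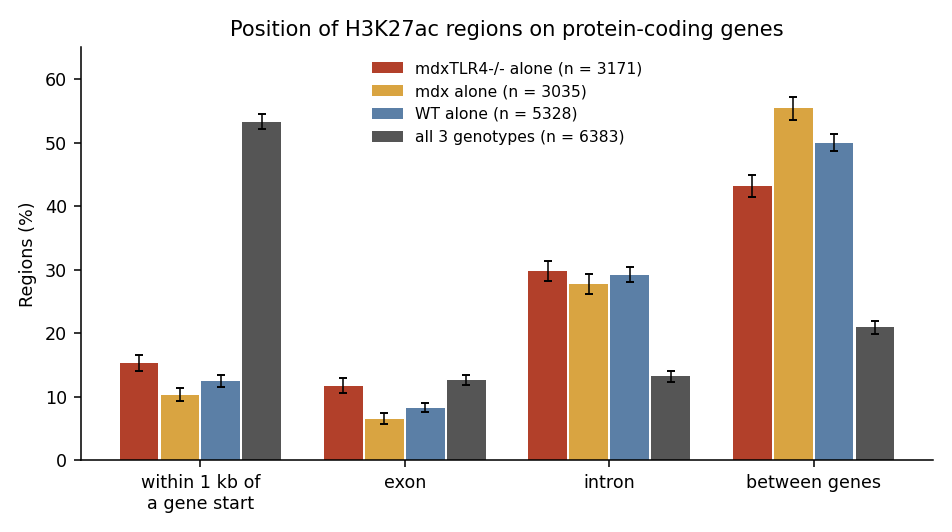
Position of H3K27ac regions on protein-coding genes (x axis, 4 exclusive classes in this order of priority) as the share of regions (y axis, %), for regions in mdxTLR4-/- alone, mdx alone, WT alone and all 3 genotypes. Bars are shares and lines Wilson 95% intervals. Gene starts hold 15.3% of the mdxTLR4-/- alone regions and 53.3% of those in all 3 genotypes.

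Among the regions at gene starts, those with the most reads lay at genes of varied function. After Rap1gds1 (chr3:139073401-139076400), Ppid (chr3:79591201-79593200) and Raph1 (chr1:60565601-60567400) came regions of 14 reads at 4 places. The first covered the starts of Nvl, an ATPase of ribosome assembly, and Cnih4, a cargo receptor of the secretory pathway (chr1:181143001-181145000). The others were at Ccdc34 (chr2:110017001-110018600), at the starts of the coatomer subunit gene Arcn1 and the ciliary transport gene Ift46 (chr9:44767001-44768400), and at the kinase gene Slk (chr19:47578801-47582000). Regions of 13 reads lay at Bmpr2, a receptor for bone morphogenetic proteins (chr1:59762601-59764400), at Atg16l1, which acts in autophagosome formation (chr1:87755801-87756800), and at Anxa3, an annexin (chr5:96792601-96795600). The next WT or mdx peak was 28800 bp away at Rap1gds1, 98200 bp at Ccdc34 and 90200 bp at Bmpr2, but 4000 bp at Arcn1 and 8200 bp at Atg16l1. None of these 10 regions touched an H3K27me3 peak of any genotype.

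Away from gene starts, the remaining regions of the 10 with the most reads were spread over exons, introns and gene-free stretches. Notch1, a receptor of cell-cell signalling, held 17 reads in a region of which 10.9% was exonic (chr2:26502401-26505400), 11262 bp from its start, and Abr 16 reads in a region of which 92% was exonic (chr11:76493801-76495600). An intron of the zinc finger gene Zfp991 held 16 reads (chr4:147135001-147140000), with a WT peak 1400 bp away. A pair of regions of 16 reads lay outside genes, nearest to Speer4e (chr5:14948201-14950200), directly beside an mdx peak, and to Fam49b (chr15:64083401-64086400). Ahnak (chr19:9011001-9015000) had its next mdx peak at 6600 bp, and the region in Gm20388 and Piezo1 (chr8:122521401-122524800) lay 200 bp from an mdx peak. Zfp991 and Speer4e belong to families with near-identical copies, where mapping of reads is uncertain.

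The regions touched 1899 of 20807 protein-coding genes, 9.13%, when a gene ran from 5 kb upstream of its start to its end. Of these genes 639 (33.6%) also had a region of all 3 genotypes, compared with 26.0% of all genes, and 195 had 2 or more mdxTLR4-/- alone regions. Genes with such a region were long, with a median of 51473 bp against 17629 bp over all genes. The 5 genes with the most regions were Gm20388 with 14, a gene model of 4434882 bp that spans its neighbours and also held 9 mdx alone and 18 WT alone regions. Next came Cntnap2, a neuronal adhesion gene of 2244857 bp, with 5, beside 2 mdx alone and 4 WT alone regions. C130026I21Rik, in a stretch of near-identical copies on chromosome 1, had 4, beside 6 mdx alone and 7 WT alone regions. Aff3 and Dennd1b had 3 each, the first by position of 22 genes with 3 regions, and 0 mdx alone or WT alone regions. At gene starts, 551 genes (2.65%) had an mdxTLR4-/- alone region within 1 kb, whereas 26.6% had an mdxTLR4-/- peak of any kind there.

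The labelled cell type was checked on its markers. Of 12 macrophage markers, 11 had a WT peak, 10 an mdx peak and 10 an mdxTLR4-/- peak within 1 kb of the start, with 95 mdxTLR4-/- reads at Spi1 (the gene of PU.1), 85 at Lyz2, 36 at Cd14 and no peak at the starts of Mrc1 and Aif1. Aif1 had none in the other lists either. Of the 24 genes of macrophage identity, 2 held mdxTLR4-/- alone regions, 1 each of 5 reads in Csf1r, the receptor for macrophage colony-stimulating factor, and in Cx3cr1, the fractalkine receptor, whose model overlaps Ttc21a there. That is 8.33% (2.32 to 25.8%), near the share of all genes, while 22 of the 24 had an mdxTLR4-/- peak of some kind.

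At Tlr4 itself (chr4:66827584-66930284) the start carried a peak in every list, which held 44 WT, 29 mdx and 28 mdxTLR4-/- reads. A peak at the start does not test the genotype label, since which part of Tlr4 was removed is not stated. The mdxTLR4-/- list held 3 further peaks in the gene, each of 5 reads. The first, chr4:66843001-66844400, overlapped a WT peak of 8 reads (chr4:66841601-66844000), and the others, chr4:66851201-66852800 and chr4:66901801-66903000, were mdxTLR4-/- alone regions in introns, 23616 bp and 74216 bp from the start. No H3K27me3 peak touched the gene in any genotype.

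In the TLR4 signalling list 7 of 30 genes held an mdxTLR4-/- alone region (23.3%, 11.8 to 40.9%), compared with 9.13% of all genes. An mdx alone region lay in 3 of the 30 (10.0%, against 6.93% of all genes) and a WT alone region in 6 (20.0%, against 12.4%). An mdxTLR4-/- peak of some kind lay in 25 of the 30 (83.3%), against 37.1% of all genes. The median gene length of the list was 31363.5 bp, against 17629 bp over all genes. For 5 of the 30 the region was within 1 kb of the gene start, where the share of all genes was 2.65%, and 21 of the 30 had some mdxTLR4-/- peak there. Ripk1, a kinase that relays TRIF and TNF receptor signals, had the region with the most reads, 10 over 1000 bp at the start it shares with Serpinb6a (chr13:34002001-34003000), and another of 5 reads. A further 4 genes had a region of 6 reads within 1 kb of the start. It covered the start of Traf6, the ubiquitin ligase downstream of MyD88 (chr2:101677801-101679200). The same held for Mapk14, the p38 kinase (chr17:28690601-28692200, with another region of 5 reads in an intron). At Tab2, the adaptor of the kinase TAK1, it lay 970 bp upstream of the start (chr10:7957201-7957800). At Chuk, a subunit of the kinase of I-kappaB, it lay 79 bp from the start (chr19:44106801-44107400). Irak2, a kinase bound to MyD88, held 7 reads in an intron (chr6:113679601-113681400). The next WT or mdx peak was 48400 bp from the Traf6 region and 36200 bp from that at the Ripk1 start, but 4200 bp away at the Mapk14 start and 1600 bp at Tab2. With Tlr4 these were all 7 genes.

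For the transcription factors and response genes that this pathway reaches, the interval of each list held the 9.13% of all genes. Of 15 genes of NF-kappaB and its inhibitors 0 held an mdxTLR4-/- alone region, with an upper Wilson bound of 20.4%, although 15 of 15 had an mdxTLR4-/- peak of some kind. Of 26 AP-1 and early response genes 3 did (11.5%, 4.00 to 29.0%): Fos with 11 reads 4289 bp upstream of its start (chr12:85467801-85469600), Maff with 7 reads at its start, and Fosl1 with 9 reads in a region at the start of its neighbour Ccdc85b. Of 44 genes of the interferon response only Trim25, a ubiquitin ligase of antiviral signalling, held a region (2.27%, 0.402 to 11.8%), of 7 reads and 200 bp from both a WT and an mdx peak.

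Among secreted factors and receptors, regions lay at a few cytokine and chemokine genes, in shares to be read against the 9.13% of all genes. Il23a and Osm, which encode an interleukin 23 subunit and oncostatin M, were the 2 of 17 pro-inflammatory cytokine and enzyme genes with a region (11.8%, 3.29 to 34.3%), of 6 reads at the start of Il23a (chr10:128298601-128299000) and 7 reads upstream of Osm (chr11:4232201-4232800). Of 25 genes of chemokines and their receptors 5 held a region (20.0%, 8.86 to 39.1%). An mdx alone region lay in 1 (4.00%, against 6.93% of all genes) and a WT alone region in 1 (4.00%, against 12.4%). The mdxTLR4-/- alone regions included 9 reads at the starts of Cxcl16 and Zmynd15 (chr11:70457401-70459800) and 8 reads at the start of the monocyte attractant Ccl7 (chr11:82045001-82047800). Ccl6 had 6 reads 2313 bp from its start, and Cxcl3 and Cx3cr1 were the other members. Of 22 anti-inflammatory and repair genes 4 held a region (18.2%, 7.31 to 38.5%): Pparg, the nuclear receptor (8 reads over exon sequence, chr6:115462801-115463800), Igf1 and Pdcd1lg2 (6 reads each, in introns) and Stat6. The same number, 4 of 22, held an mdx alone region (18.2%, against 6.93% of all genes). An mdxTLR4-/- peak of some kind lay in 23.5% of the cytokine, 56.0% of the chemokine and 59.1% of the repair genes. Over all genes that share was 37.1%. The intervals of the cytokine and repair lists held the background share, and that of the chemokine list began just below it.

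In the remaining lists of cell functions the intervals were wide and held the 9.13% of all genes. Of 32 lysosome genes 5 held a region (15.6%, 6.86 to 31.8%), with 6 reads at the start of the sialidase Neu1 and 5 in an intron of Tfeb, a regulator of lysosome genes. Of 58 cytosolic ribosomal protein genes 5 did (8.62%, 3.74 to 18.6%), with 7 reads each in Rpl11 and Rps14 introns and 6 at Rps10. Of 37 genes of glycolysis and the citrate cycle 4 did (10.8%, 4.29 to 24.7%), with 6 reads each in Idh1, Hk1 and Hif1a. Of 23 genes in the list named writers and erasers of H3K27 marks 4 did (17.4%, 6.98 to 37.1%). Among them were the acetyltransferase gene Kat6a with 9 reads at its start (chr8:22857801-22860600) and the deacetylase genes Hdac4 with 8 reads and Sirt1 with 5. Which lysines each enzyme of this list acts on was not examined here.

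Genes of fibroblasts and matrix, a cell type other than the one labelled, stood highest of the lists. Of 16 such genes 5 held an mdxTLR4-/- alone region (31.2%, 14.2 to 55.6%), against 9.13% of all genes. An mdx alone region lay in 0 of the 16 (6.93% of all genes) and a WT alone region in 3 (18.8%, against 12.4%). An mdxTLR4-/- peak of some kind lay in 6 of the 16 (37.5%), against 37.1% of all genes, and 0 of the 16 had one within 1 kb of the start. Of the 6 regions, 5 were short and lay over exons: Col3a1, a fibrillar collagen, had 8 reads in 600 bp of which 66.7% were exonic (chr1:45348401-45349000), Fn1, fibronectin, 6 reads in 400 bp with 67.5% (chr1:71603601-71604000), and Fbln1, fibulin, 5 reads in 400 bp with 89.0% (chr15:85251401-85251800). Col1a1, the chain of type I collagen, had 5 reads in 400 bp and 6 reads in 600 bp, with 50.8% and 54.5% exonic, and both lay inside H3K27me3 domains of 6053 WT, 3489 mdx and 3831 mdxTLR4-/- reads. Acta2, smooth muscle actin, held 7 reads in 1400 bp of which 7.93% were exonic. The next WT or mdx peak lay 5200 bp and 1200 bp from the Col1a1 regions, and from 17800 bp (Fn1) to 111400 bp (Col3a1) from the others. The lists give no reads, so whether the reads in these exonic regions cross exon junctions, as copies of spliced RNA would, was not tested, and the values are given as peak calls only. The genes of this list had a median length of 33330 bp, against 17629 bp over all genes. The lists of other cell types gave 1 of 18 muscle genes (Ttn, 5 reads over an exon), 1 of 15 neutrophil genes (Prtn3, 7 reads), 0 of 19 lymphocyte genes and 0 of 10 erythroid and mast cell genes.

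The study's own lists of inflammatory and fibrotic genes, which it describes as pre-defined, were counted too. Of 680 pro-inflammatory genes 87 held an mdxTLR4-/- alone region (12.8%, 10.5 to 15.5%), of 762 anti-inflammatory genes 127 did (16.7%, 14.2 to 19.5%) and of 60 pro-fibrotic genes 9 did (15.0%, 8.10 to 26.1%). The lower bounds of the first pair lay above the 9.13% of all genes. An mdxTLR4-/- peak of some kind also lay in 63.5%, 56.7% and 38.3% of the genes of these lists, against 37.1% of all genes. The same lists held mdx alone regions in 8.82%, 11.4% and 13.3% of genes, against 6.93% of all genes, and WT alone regions in 19.9%, 21.4% and 23.3%, against 12.4%. Their genes were longer than average, with medians of 24944, 29906 and 39493 bp. The strongest regions lay in Notch1, upstream of the glutathione reductase gene Gsr (12 reads, chr8:33646401-33648400) and upstream of Fos for the pro-inflammatory list, in Ahnak, at Anxa3 and in Cdk6 (11 reads in an intron, chr5:3430001-3430800) for the anti-inflammatory list, and at Bmpr2, in Col3a1 and in an intron of the Fgfr2 model (7 reads, 1174349 bp from its start) for the pro-fibrotic list.

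**Figure D3:**
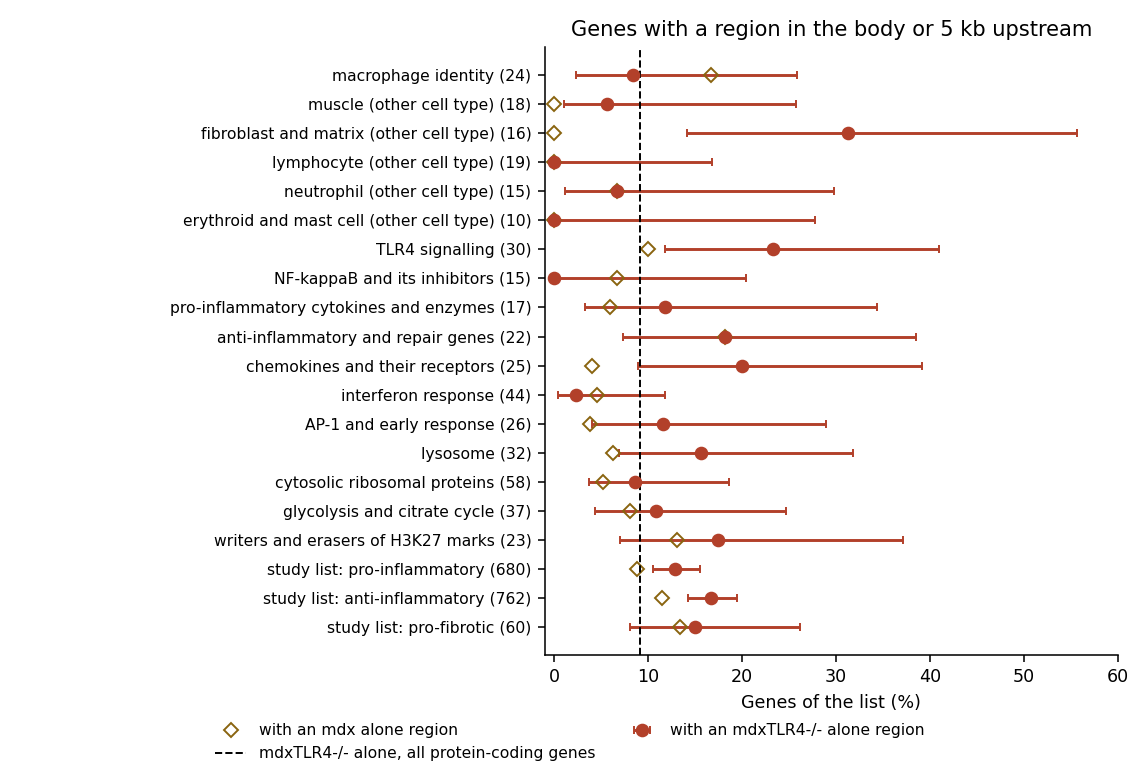
Share of the genes of each list (x axis, %; list size in parentheses) with an mdxTLR4-/- alone region in the gene body or 5 kb upstream (points, with Wilson 95% intervals) or an mdx alone region (diamonds). The dashed line marks the 9.13% of all protein-coding genes with an mdxTLR4-/- alone region. The share of all protein-coding genes with an mdx alone region, 6.93%, is not drawn. Fibroblast and matrix genes reach 31.2% and NF-kappaB genes 0 of 15.

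Few mdxTLR4-/- alone regions lay in H3K27me3 domains. Of the 3171, 162 touched an H3K27me3 peak of the WT list (5.11%, 4.40 to 5.93%), 174 of the mdx list (5.49%, 4.75 to 6.34%) and 138 of the mdxTLR4-/- list (4.35%, 3.70 to 5.12%), although those peaks cover 10.2%, 10.6% and 9.07% of bases. For regions of all 3 genotypes the shares were 1.74% (1.45 to 2.09%), 1.41% (1.15 to 1.73%) and 1.14% (0.911 to 1.44%), lower with no overlap of the intervals. For mdx alone regions they were 5.07%, 4.71% and 4.32%, and the intervals overlapped those of the mdxTLR4-/- alone regions in each list. For WT alone regions they were 3.81%, 3.34% (2.89 to 3.86%) and 3.51%, with intervals apart from those of the mdxTLR4-/- alone regions for WT and mdx H3K27me3 and overlapping for mdxTLR4-/- H3K27me3.

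The H3K27me3 at these sites was in part shared between genotypes. H3K27me3 of at least 1 list was touched by 224 mdxTLR4-/- alone regions, and those that touched it in all 3 made up 3.19% of the mdxTLR4-/- alone regions (2.63 to 3.86%). A set of 25 regions (0.788%, 0.535 to 1.16%) touched H3K27me3 of WT and mdx but not of mdxTLR4-/- BMDM, and 14 (0.442%, 0.263 to 0.740%) touched that of mdxTLR4-/- BMDM alone. Among mdx alone regions the first pattern had 28 of 3035 (0.923%, 0.639 to 1.33%), with overlapping intervals. These 3 regions were picked after their values were seen, as those with the most H3K27ac reads. A region of 15 reads in an intron of the kinase gene Prkca (chr11:108222001-108224600) lay inside domains of 1774 WT, 1751 mdx and 1153 mdxTLR4-/- H3K27me3 reads. The region of 12 reads upstream of Gsr touched H3K27me3 peaks of 96 mdx and 62 mdxTLR4-/- reads and of no WT peak. A region of 11 reads at the start of the homeobox gene Meis1 (chr11:19018201-19020200) touched an H3K27me3 peak of 129 reads in mdx BMDM only. These counts come from pooled lists and can include cells that carry either mark.

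**Figure D4:**
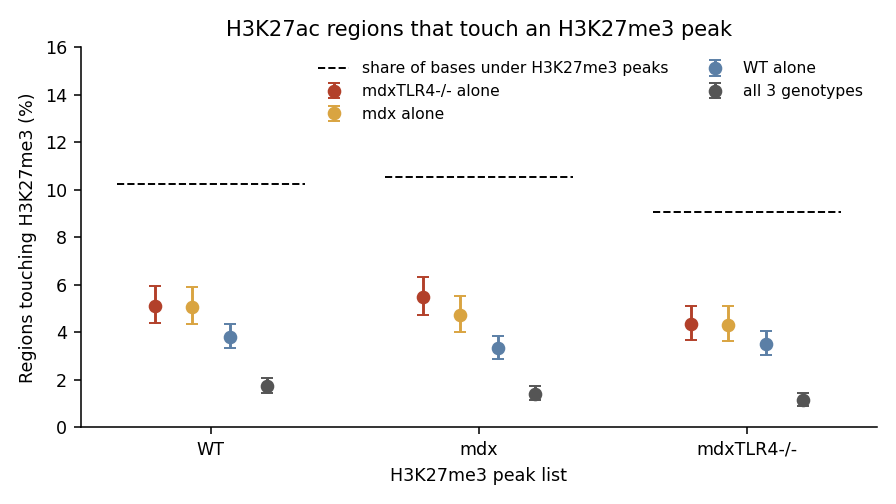
Share of H3K27ac regions that touch an H3K27me3 peak by at least 1 bp (y axis, %) for the WT, mdx and mdxTLR4-/- H3K27me3 lists (x axis). Points are shares with Wilson 95% intervals, and dashed lines the share of bases under the peaks of that list. The mdxTLR4-/- alone regions lie between 4.35% and 5.49%, above the regions of all 3 genotypes and below the share of bases.

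In sequence, the mdxTLR4-/- alone regions held fewer repeats than the regions of the other single lists. A median of 22.1% of their bases was repeat-masked (21.1 to 23.0%), compared with 52.5% (46.8 to 58.4%) in mdx alone, 35.1% (33.8 to 37.0%) in WT alone and 16.8% (16.5 to 17.1%) in regions of all 3 genotypes, and with 33.5% of all bases. At least 50% of the bases were masked in 21.3% of them (19.9 to 22.7%), 50.7% of mdx alone and 41.9% of WT alone regions. Away from gene starts, at 1800 bp or longer, the shares were 39.6% (35.7 to 43.7%), 76.2% (74.0 to 78.3%) and 69.3% (67.4 to 71.1%), and at 600 to 800 bp they were 16.5%, 18.6% and 16.7%, with overlapping intervals. At 200 to 400 bp they were 24.3% (19.3 to 30.3%), 37.7% and 39.2%, and at 1000 to 1600 bp 22.1% (19.9 to 24.4%), 34.3% and 24.6%, where the interval of the WT alone regions overlapped. Length thus moved with the repeat share, and its part in the difference was not tested beyond these classes.

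The GC content of the central 300 bp had a median of 44.3% (44.0 to 44.7%), against 41.7% in mdx alone, 43.0% in WT alone and 51.3% in regions of all 3 genotypes. The CpG ratio, observed CpG over that expected from the C and G content, had a median of 0.201. Both differed by position: regions at gene starts had 57.3% GC and a CpG ratio of 0.645, close to the 56.7% and 0.666 of gene start regions of all 3 genotypes, whereas those elsewhere had 43.0% and 0.179, below the 48.0% (47.7 to 48.3%) and 0.235 (0.228 to 0.242) of regions of all 3 genotypes elsewhere. The Rap1gds1 and Raph1 sequences printed above are of the CpG-rich kind, and that of Ahnak has no CpG.

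**Figure D5:**
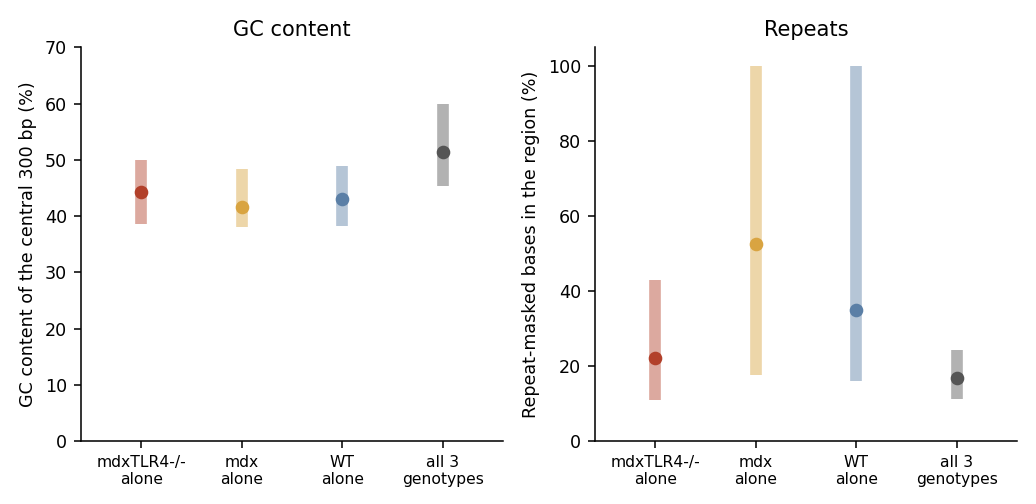
GC content of the central 300 bp (left, y axis in %) and repeat-masked bases of the whole region (right, y axis in %) for regions in mdxTLR4-/- alone, mdx alone, WT alone and all 3 genotypes (x axis). Points are medians and bars run from the lower to the upper quartile. The mdxTLR4-/- alone regions have a median of 22.1% masked bases, against 52.5% for mdx alone.

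Motifs of macrophage factors were searched in the central 300 bp on both strands. A match is a description of the letters and not a bound site. GAGGAAGT, a PU.1 and ETS motif, occurred in 3.47% of the mdxTLR4-/- alone regions (2.89 to 4.16%) and 3.96% of all merged regions, and TGANTCA, the AP-1 motif, in 9.24% (8.28 to 10.3%) and 9.16%. The C/EBP motif TTGCNCAA occurred in 2.78% and 3.00%, the IRF motif GAAANNGAA in 11.7% and 11.8%, the E-box CACGTG in 4.42% and 4.86%, the cAMP response element TGACGTCA in 0.378% and 0.669%, the NRF1 motif GCGCATGCG in 0.158% and 0.386%, and CCAAT in 35.8% and 35.6%. No motif of the set contains another. The NF-kappaB motif GGGANTTCC was found in 40 regions (1.26%, 0.928 to 1.71%), against 1.13% of all merged regions, 1.57% of regions of all 3 genotypes and 0.461% of mdx alone regions (0.275 to 0.773%). Away from gene starts it was, with Wilson intervals in parentheses, in 31 of 2685 mdxTLR4-/- alone (0.815 to 1.63%), 7 of 2722 mdx alone (0.125 to 0.530%) and 35 of 4665 WT alone regions (0.540 to 1.04%). The mdx alone regions held more repeats and less GC, and the part of these in the motif counts was not tested. GGGCGGGG, the SP and KLF motif, was in 14.2% of the mdxTLR4-/- alone regions at gene starts and in 14.1% of gene start regions of all 3 genotypes, but elsewhere in 1.19% (0.845 to 1.68%) and 3.29% (2.71 to 3.99%).

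The regions were spread over all 19 chromosomes. Their share of the merged regions ran from 12.3% on chromosome 7 (10.7 to 14.1%) to 17.0% on chromosome 1 (15.2 to 18.9%), and it was 15.9% on chromosome 4 (14.1 to 17.9%). Within 10 Mb of Tlr4, 29 of 138 merged regions were mdxTLR4-/- alone (21.0%, 15.0 to 28.5%), against 14.7% overall (14.3 to 15.2%). The lower bound lay just inside the interval of the whole. The WT alone share was raised in the same stretch, at 34.8% (27.3 to 43.0%) against 24.8%, and the mdx alone share was 17.4% (12.0 to 24.6%) against 14.1%, while regions of all 3 genotypes made up 15.9% (10.8 to 23.0%) against 29.7%. Around Tlr4 the shares of all 3 kinds of single-list region were above their overall values, with intervals that overlapped for mdxTLR4-/- and mdx and not for WT.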

How the data were processed

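The deposited data used here were 6 peak lists, 1 for each of 2 marks and 3 genotypes. The authors mapped reads to mm10 with Bowtie2, merged replicates where there were 2 (mdxTLR4-/- H3K27ac had 1 library), and called peaks with SICER2 (window 200 bp, gap 600 bp, FDR below 0.01), and the deposited values are read counts per peak, not scaled for depth or length. The submitters' processing notes also name CASAVA 1.8, cutadapt 1.15, Bowtie2 2.3.4 and SICER 2.0. Removal of duplicates and of multiply mapped reads is not given in the sources used here.

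H3K27ac peaks on chromosomes 1 to 19 were joined where they shared 1 bp or more. Genes were those of GENCODE vM21 (20807 protein-coding), and sequence and repeat masking came from RefSeq's GRCm38, the mm10 assembly. Shares have Wilson and medians order-statistic 95% intervals, which cover counting error or the spread over regions, not mice. The members, gene lists and motifs were chosen with earlier results of these data known. Named were the 10 regions with the most reads, the 10 with the most at gene starts, up to 3 genes with the most reads in each of 20 lists, the 5 genes with the most regions, and Tlr4. Genes named beyond these were chosen after their values were seen. Some items that the rule names are not reported here. On simulated peak lists, the number of joined regions, the number of mdxTLR4-/- alone regions and their reads were recovered. The Wilson interval, median and distance steps also gave known answers. Gene position, gene lists, H3K27me3 coverage, sequence and motif steps were not tested in this way. Python 3.11.15, numpy 2.4.6, pandas 2.3.3, scipy 1.17.1 and matplotlib 3.10.9 were used. Input libraries and signal tracks were not analysed here.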

Additional observations from a re-analysis of the deposited data

Results flagged for a closer look

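Regions of the same kind lay on the sex chromosomes, which the definition leaves out. On chromosome X, 77 of 718 merged H3K27ac regions were touched by the mdxTLR4-/- list alone (10.7%, Wilson 95% interval 8.67 to 13.2%), with 5 to 14 reads and a median of 5. On chromosome Y there were 31 of 404 (7.67%, 5.46 to 10.7%), with 5 to 7 reads and a median of 5. Both shares were below the 14.7% of chromosomes 1 to 19.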

How the results depend on the processing

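The number of mdxTLR4-/- alone regions, 3171, rested on weak peaks. It was 134 when mdxTLR4-/- peaks had to hold at least 10 reads, and 406 when peaks of every list had to (an alternative chosen after seeing the data), with 993 mdx alone and 2628 WT alone regions then. It ranged from 2224 to 3618 under the other alternatives: peaks of at least 1 kb, the same 11581 peaks from each list by density (3081) or by reads (3077), merging up to 600 bp or 2 kb apart, all chromosomes, and less than 50% of the peak covered. The share at gene starts, 15.3%, was 17.3% for the 5 kb upstream, 20.1% for all annotated genes and 35.8% for peaks of at least 10 reads. The share touching mdxTLR4-/- H3K27me3, 4.35%, was 3.66% with at least 50% of the region covered and 2.99% for peaks of at least 10 reads. The share with a WT or mdx peak within 5 kb, 18.2%, was 5.36% at 1 kb, 43.0% at 20 kb and 28.4% for peaks of at least 10 reads. The median GC, 44.3%, was 43.9% over whole regions and 48.5% for peaks of at least 10 reads. The genes touched, 1899, were 624 with the 5 kb upstream only and 125 with peaks of at least 10 reads. The median density relative to mdx alone regions, 1.14, was 1.30 after scaling to 1000000 reads in peaks and 1.15 for peaks of at least 1 kb. No paired analysis was possible because replicates were merged into 1 list per genotype, and for the same reason no replicate could be left out.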
